A study of Brassica rapa subsp. pekinensis with 6 samples.

Results

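Flower buds of fertile plants contained 147 abundant transcripts that were almost, but not entirely, missing from buds of sterile plants of the same Chinese cabbage line. The set was chosen from the data by a rule: identifiers that begin with Bra, a mean of at least 100 raw CPM (counts per 1e6 counts of the library) in fertile buds, a sterile mean of at most 1% of the fertile mean, and at least 1 count over the sterile libraries. It holds 147 of the 1819 Bra genes that reached 100 raw CPM in fertile buds, of 41019 Bra genes and of 43354 identifiers in all. Because the rule used the difference between fertile and sterile buds, that difference is described below and not tested.

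The buds came from the male sterile GMS line AB01 (Brassica rapa subsp. pekinensis), in which male sterility is inherited through multiple alleles, and the seeds were sown in a greenhouse after vernalization. One group is 3 libraries from fertile buds and the other is 3 libraries from sterile buds, described as biological replicates. The labels name neither bud size, developmental stage, plant age nor the number of plants behind a library. The libraries held between 27637426 and 35564895 counts. Neither the labels nor the gene table of another assembly pairs any of the 147 identifiers with a gene name, so no role is assigned to them, floral marker genes could not be used to check the tissue label, and no sequence or position is shown.

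A flower bud forms its pollen inside the anther, where the tapetum, a nourishing cell layer, secretes enzymes, lipids and wall precursors onto the developing microspores. These cells and the pollen itself use large sets of transcripts that few other plant tissues make, some of them at very high level. Male sterility from nuclear genes can stop this course at a point that differs between mutants, and such buds can still form petals, sepals and a working pistil. In RNA from whole buds, fewer cells of a type and less RNA per cell cannot be told apart.

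The 147 genes held 9.23%, 9.32% and 9.35% of the counts of the fertile libraries 1 to 3, a mean of 9.30% ± 0.0634 (SD, n = 3). In the sterile libraries 1 to 3 they held 0.0122%, 0.0124% and 0.0180%, a mean of 0.0142% ± 0.00333 (SD, n = 3). The exact 95% binomial interval of the sterile library 1 share ran from 0.0118% to 0.0125% and that of sterile library 3 from 0.0176% to 0.0185%; such intervals cover counting error only. The 2 groups did not overlap, which the rule all but fixed for the set. Sterile library 3 stood above the other 2. In counts, 8508161 reads in fertile buds faced 13951 in sterile buds, a mean share 655 times lower. All 147 genes were lower in sterile buds in the edgeR fit over all genes, where 33.3% of 33150 genes tested were called lower and 7.83% were called at least 10-fold lower; the rule fixed this outcome for the set. DESeq2 called 28.3% of its genes lower and limma on RPKM (counts per kilobase of model and 1e6 counts) 19.9%, each with all 147 among them.

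The set includes the top of the fertile transcriptome. Of the 10 most abundant Bra genes of fertile buds 6 belong to it, of the 50 most abundant 26, and of the 100 most abundant 43. Fertile means ran from 102.9 to 6262 raw CPM with a median of 337.5. The 2 most abundant members held 13.3% of the set's fertile counts and the 10 most abundant 33.3%.

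Bra027246 was the most abundant Bra gene of fertile buds, with 6096, 6444 and 6245 raw CPM in fertile libraries 1 to 3. It stood at 1.38, 1.67 and 3.18 raw CPM in sterile libraries 1 to 3. The sterile mean was 0.0332% of the fertile mean (exact 95% interval of the ratio from pooled counts, 0.0290% to 0.0384%), and sterile library 3 was the highest. Ratio intervals, here and below, cover counting error only and leave out the spread between libraries. The edgeR log2 fold change, sterile against fertile, was -11.85 ± 0.17 (SE). This SE is derived from the F statistic and hardly follows the number of sterile counts. It was 0.175 for Bra027246 with 205 sterile counts and 0.168 for Bra030510, the member with the lowest ratio, with 1. It is therefore no measure of the error in the sterile level.

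Bra009254, the second in order, had 5937, 6174 and 6204 raw CPM in fertile buds. It kept 20.2, 22.0 and 32.8 raw CPM in sterile buds, the most of any member. Its sterile level was 0.410% of the fertile one (0.395% to 0.428%), 12.3 times the share left for Bra027246, although both genes had nearly the same fertile level. Their log2 fold changes were -8.23 ± 0.16 (SE) for Bra009254 and -11.85 for Bra027246.

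The next genes differed in the same way. Bra005944 had 3267, 3272 and 3424 raw CPM in fertile buds and 0.878, 1.36 and 1.58 in sterile buds. Bra020716 had 2459, 2447 and 2397 raw CPM in fertile buds but only 2, 1 and 3 counts in sterile libraries 1 to 3. Bra028691 had 2241, 2401 and 2585 raw CPM in fertile buds and 7.27, 9.01 and 17.6 in sterile buds. Within each gene the fertile libraries lay close together. Between these 3 genes the fertile means differed by up to 1.38-fold and the sterile means by up to 185-fold.

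Of the other 5 among the 10 most abundant members, Bra029683 (2308 ± 93.1 raw CPM in fertile buds, SD, n = 3) had 1, 4 and 2 sterile counts. Bra033347 (2069 ± 59.3 raw CPM) had 0, 1 and 1. Bra032390 (2080 ± 83.1 raw CPM) kept 8, 11 and 11 sterile counts and Bra025355 (1984 ± 84.7 raw CPM) kept 9, 6 and 6. Bra039045 was the least even of the 10 in fertile buds, with 1997, 2334 and 1769 raw CPM, and had 33, 38 and 26 sterile counts. In all 10 genes the fertile and sterile libraries were far apart, which the rule all but fixed.

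**Figure D1:**
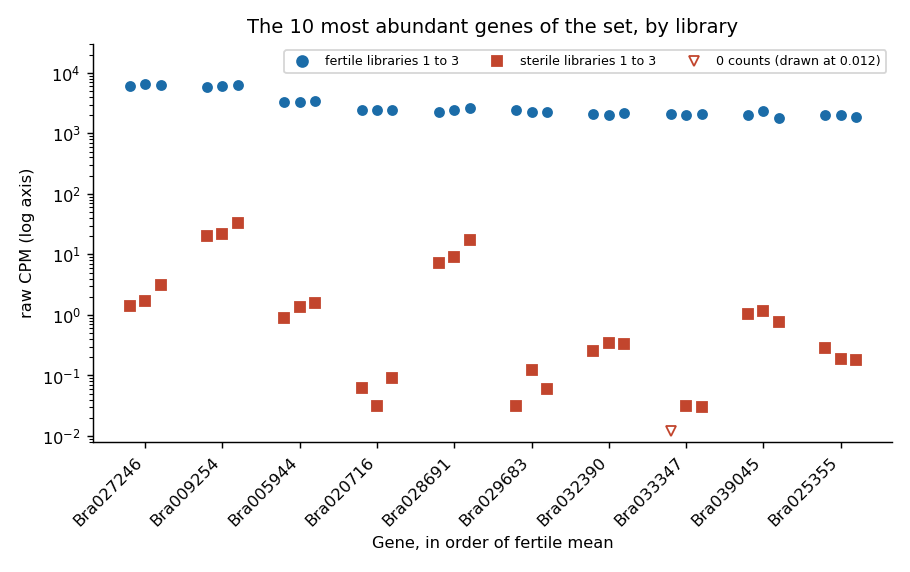
Raw CPM (log axis) of the 10 most abundant genes of the set in fertile libraries 1 to 3 (circles) and sterile libraries 1 to 3 (squares), with open triangles for 0 counts. The fertile points of each gene are close together, while sterile levels run from 32.8 raw CPM in Bra009254 to 0 counts in 1 library of Bra033347.

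Per length, the order at the top changes. The deposited RPKM put Bra009254 first at a fertile mean of 6672, followed by Bra027246 at 6050, Bra028691 at 5353 and Bra005944 at 5322. Bra036578, the fifth at 2804 RPKM, is a short model of 246 nt with 660.8, 663.0 and 745.6 raw CPM in fertile buds and a single sterile count, in library 1. The median fertile level was 315.9 RPKM.

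The sterile remainder spanned 3 orders of magnitude. The sterile mean was between 0.000707% and 0.979% of the fertile mean, with a median of 0.0341%, which is a median fall of 2936-fold. In 43 genes at most 0.01% was left, in 53 between 0.01% and 0.1%, and in 51 between 0.1% and 1%. The first class held 85 sterile counts in all, 25, 34 and 26 in libraries 1 to 3, against 36.9% of the set's fertile counts. The class from 0.1% to 1% held 30.0% of the fertile counts and 91.9% of the sterile ones. Because the classes were cut on the ratio itself, these unequal sterile shares were all but fixed. Sterile counts were also concentrated in few genes: 5 genes held 46.2% and 10 held 63.4% of the 13951.

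The lower end of this range is set by depth. A single count over the 3 sterile libraries corresponds to 0.0102 raw CPM, and 23 members had exactly 1 sterile count. With a remainder of 1 to 3 counts in 47 members, the ratio is known to within its counting interval only. Bra030510, with the lowest ratio, had 1474, 1345 and 1388 raw CPM in fertile buds and 1 count in sterile library 3, which is 0.000707% of the fertile level with an interval from 1.8e-05% to 0.00407%. Bra000438 (1301 ± 35.6 raw CPM), Bra040474 (1004 ± 27.2) and Bra012929 (935.8 ± 69.0) also had 1 sterile count each. The 35 abundant Bra genes with no sterile count, which the rule leaves out, differ from such members by as little as 1 count.

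At the upper end, Bra012383 had 339.8, 332.1 and 344.8 raw CPM in fertile buds and 2.41, 2.72 and 4.82 in sterile buds, 0.979% of the fertile level (0.881% to 1.10%). Bra025794 kept 0.966% and Bra021762 0.944%, and both were also among the 5 genes with most sterile counts. Bra025794 stood at 9.72, 9.16 and 12.7 raw CPM in sterile buds, and Bra021762 at 9.37, 9.41 and 15.2. Bra012875, the other gene among those 5 besides Bra009254 and Bra028691, kept 0.712% of 1039 ± 32.2 raw CPM. Bra033172 and Bra039021 followed at 0.899% and 0.866%, with fertile means of 110.03 and 204.9 raw CPM.

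Genes at the edges of the rule had like values on both sides. Just above the limit of 1% lay Bra024610 at 1.06%, Bra019283 at 1.10% and Bra017861 at 1.12%, the last with a fertile mean of 2089 raw CPM. Just below 100 raw CPM lay Bra034634 at 99.3, Bra008228 at 99.2 and Bra033819 at 97.3. The least abundant members were Bra014533 at 102.9, Bra011098 at 106.2 and Bra037415 at 107.3 raw CPM. Of 60 abundant models outside the Bra identifiers, 6 also met the other conditions.

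**Figure D2:**
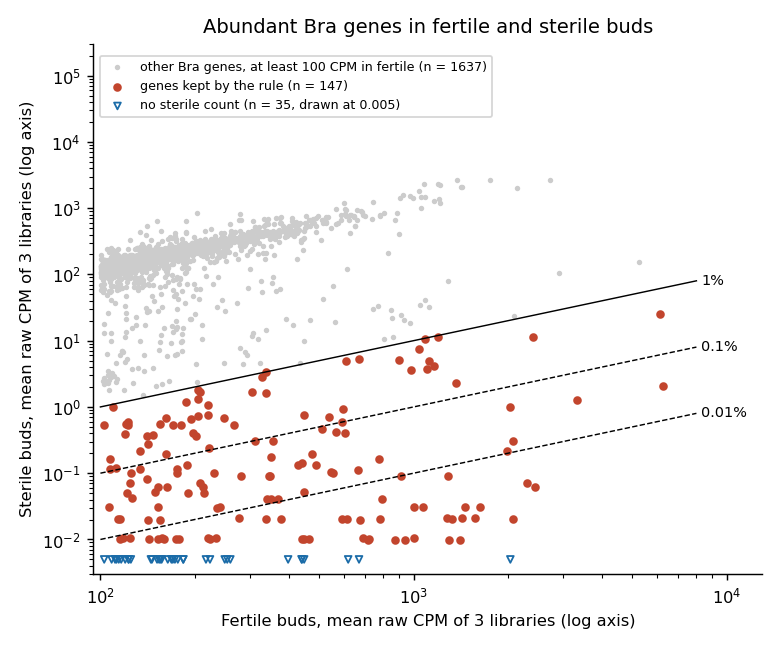
Mean raw CPM in fertile buds (x) and sterile buds (y), both log axes, for the 1819 Bra genes at 100 raw CPM or more in fertile buds, with lines at sterile levels of 1%, 0.1% and 0.01% of the fertile level. The 147 genes of the set lie under the 1% line and fill the range down to single counts; 35 genes without a sterile count are drawn as triangles.

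Across the 147 genes, Spearman's rho between fertile and sterile mean raw CPM was 0.08, and between the fertile mean and the ratio it was -0.30. The rule bounds both, by its fertile minimum, its limit on the ratio and its demand for a sterile count, and 1 count is a larger ratio in a less abundant gene, so nothing is read from either. All points share the same 6 libraries. Among the 29 members at 1000 raw CPM or more in fertile buds, 15 kept at most 0.01%, 5 kept between 0.01% and 0.1%, and 9 kept more than 0.1%. Over the whole set these classes held 29.3%, 36.1% and 34.7% of the genes. The same limits bound these classes, so nothing is read from this comparison either.

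Coding length, which the rule did not use, had a median of 1194 nt in the set (quartiles 637.5 and 1659), near the 1152 nt of the 1472 abundant genes that kept over 50% of their level in sterile buds. The median was 1311 nt in the 90 abundant genes that kept 1% to 10% and 1515 nt in the 75 that kept 10% to 50%. The 35 abundant genes without sterile counts were shorter, at a median of 639 nt. Within the set, Spearman's rho between length and the ratio was -0.05. The shortest models had 186 nt, a length shared by 4 members. Among these Bra016902 was the most abundant, with 452.2, 403.5 and 463.2 raw CPM in fertile buds and 5, 4 and 5 counts in sterile buds. The longest was Bra028693 with 6117 nt, at 608.0, 592.9 and 605.0 raw CPM in fertile buds and 11, 12 and 16 sterile counts. These gene-set values are descriptions, without a test.

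The sterile libraries did not hold the remainder in equal amounts. Of 58 members with at least 20 sterile counts, sterile library 3 had the highest raw CPM in 39, library 1 in 9 and library 2 in 10. Library 3 was thus the highest in 67.2%, against 60% of the abundant genes that kept 1% to 10% (54 of 90), 20% of those with 10% to 50% (15 of 75) and 35.8% of those with over 50% (527 of 1472). The level in library 3 divided by the mean of libraries 1 and 2 had a median of 1.34 (quartiles 1.03 and 1.61) and ranged from 0.435 to 3.98. Summed over the set, the sterile libraries stood at 121.6, 124.0 and 180.5 raw CPM, a quotient of 1.47. In abundant genes that kept 1% to 10% the median quotient was 1.08 (n = 90), in those with 10% to 50% it was 0.988 (n = 75), and in those with over 50% it was 0.999 (n = 1472). These quotients describe 3 libraries across genes, and their differences between classes were not tested.

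Within the set the quotient was also taken by class, without an interval or a test. In the 43 genes with at most 0.01% left, the summed quotient was 0.843, on only 85 counts, few enough for a wide counting error. In the genes between 0.01% and 0.1% it was 1.37, and in those between 0.1% and 1% it was 1.48. Among the 58 members with at least 20 sterile counts, the one with the most uneven counts was Bra005946, with 12, 12 and 50. Bra020050 and Bra006284, the next, were highest in library 2, with 6, 16 and 5 counts and with 5, 12 and 4.

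**Figure D3:**
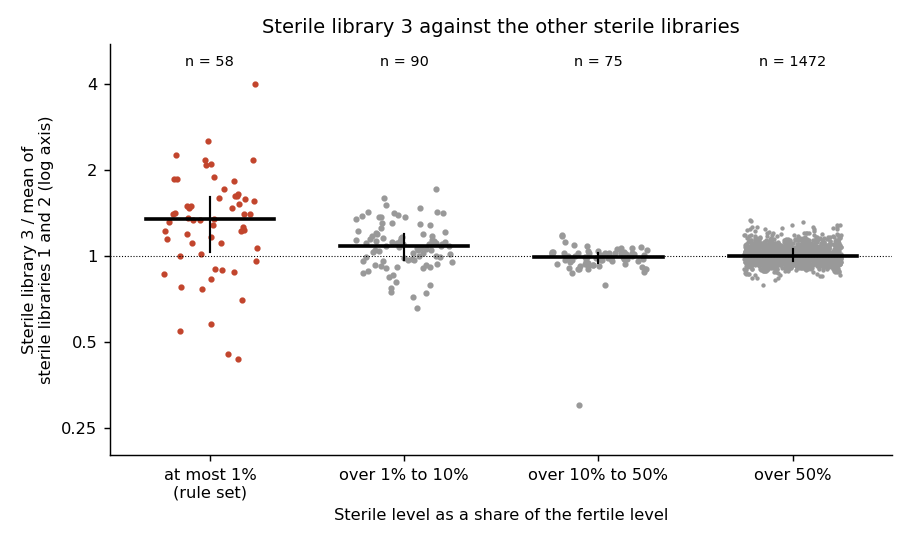
Raw CPM of sterile library 3 divided by the mean of sterile libraries 1 and 2 (log axis) for abundant Bra genes with at least 20 sterile counts, by the share of the fertile level kept in sterile buds; each point is a gene, thick bars are medians and thin bars quartiles. The median is 1.34 in the set and 1.08, 0.988 and 0.999 in the other classes.

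Coding length moved with the same quotient. In members under 500 nt the median quotient of sterile library 3 was 1.62 (n = 12), and in longer members it was 1.27 (n = 46). In abundant genes that kept over 50% these medians were 1.09 (n = 256) and 0.989 (n = 1216). Spearman's rho between length and the sterile quotient was -0.41 across the 58 members and -0.66 across the 1472 genes that kept over 50%. Fertile library 3 had a like feature: its level divided by the mean of fertile libraries 1 and 2 was 1.10 in the 26 members under 500 nt and 1.01 in the others, with a Spearman's rho of -0.53 between length and quotient across the 147 genes. In abundant genes that kept over 50%, rho was -0.49. The part of length in these differences between libraries was not tested.

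**Figure D4:**
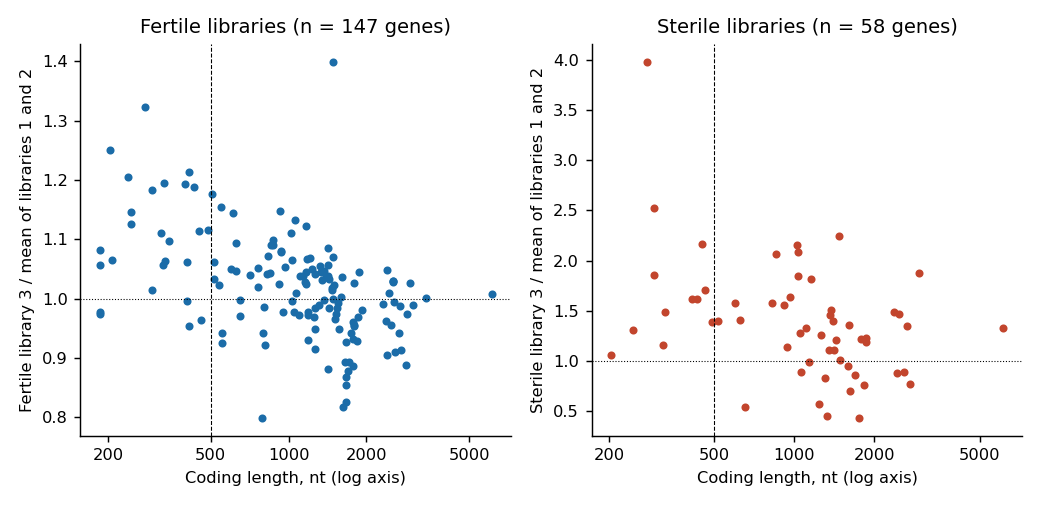
Library 3 divided by the mean of libraries 1 and 2 against coding length (log axis) for fertile libraries (147 genes) and for sterile libraries (58 genes with at least 20 sterile counts); the dashed line marks 500 nt. In both groups short genes lie higher, with medians under 500 nt of 1.10 in fertile and 1.62 in sterile libraries.

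Fertile libraries were otherwise close for these genes. The coefficient of variation over the 3 fertile libraries had a median of 4.69% (quartiles 3.35% and 7.12%), against 3.41% in abundant genes that kept over 50% and 7.27% in the 35 without sterile counts. The median was 3.83% in abundant genes that kept 1% to 10% and 3.91% in those that kept 10% to 50%. The coefficient was under 5% in 77 members and over 10% in 14. The highest was 20.4% in Bra032538, with 158.2, 151.6 and 216.8 raw CPM. Bra001464 followed at 17.2%, with 133.7, 167.2 and 120.2 raw CPM. Bra005946 came next at 16.9%, with 406.0, 399.9 and 533.3 raw CPM. The first and last were highest in fertile library 3 and Bra001464 in fertile library 2. Of the 14 members over 10%, 8 were highest in fertile library 3 and 8 were under 500 nt long. Over the whole set, 64 of 147 were highest in fertile library 3 and 26 of 147 were under 500 nt. Neither difference was tested.

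Some members carry consecutive identifier numbers. This holds for 27 of 147 (18.4%), in 9 pairs and 3 runs of 3, and among all 1819 abundant Bra genes 12.9% have another abundant gene at the next number. The shares have unlike bases, a neighbour among 147 genes and a neighbour among 1819. A larger set offers more neighbours, so 12.9% is no background for 18.4%. No like share was computed, and both are given as a description. No source at hand states whether numbers follow the order of genes on a chromosome.

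The run with the highest summed fertile level was Bra009253 to Bra009255. Bra009253 had 563.0, 558.1 and 576.7 raw CPM in fertile buds and 7, 14 and 20 sterile counts, 0.0735% of the fertile level. Bra009254 kept the 0.410% given above. Bra009255 had 567.9, 623.1 and 629.1 raw CPM in fertile buds and 138, 138 and 215 sterile counts, which is 0.824%. Its fertile level was close to that of Bra009253 and its remainder 11.2 times larger.

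In the run Bra028691 to Bra028693 the remainders were 0.469%, 0.0990% and 0.0660%. Bra028692, of 297 nt, had 517.1, 662.1 and 598.4 raw CPM in fertile buds and 10, 15 and 33 sterile counts. In the run Bra025354 to Bra025356 little was left of any gene, with 4, 21 and 5 sterile counts. Bra025354 had 792.1 ± 11.9 raw CPM in fertile buds, Bra025355 the 1984 given above and Bra025356 445.4 ± 23.0 (SD, n = 3).

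The highest remainder was within 10-fold of the lowest in 10 of 12 runs and within 3-fold in 7; pairs of members that are not neighbours were not compared, and the rule itself confines all members to under 1%. Bra029682 and Bra029683, the most abundant pair, kept 0.00132% and 0.00310% of 1572 ± 22.5 and 2308 ± 93.1 raw CPM. Bra010872 and Bra010873 kept 0.00294% and 0.00286%. For many of these genes 1 to 3 sterile counts leave a wide counting interval. The widest gap was between Bra004480 and Bra004481: the first kept 0.459%, as 18, 24 and 12 counts, of 120.8 raw CPM, and the second had 1 sterile count beside 874.5 raw CPM in fertile buds. The pairs in this paragraph were picked after their values were seen. In 6 of the 9 pairs the lengths of both genes were within 10% of each other, as with 1263 and 1266 nt for Bra010872 and Bra010873. In the 3 runs of 3 the longest gene exceeded the shortest by 255%, 92.8% and 1960%. No like share was computed for other neighbouring genes, so the 6 pairs are a description. Without sequences, near-identical copies could not be identified. Reads of such copies, if any, may have been split between them, which was not tested.

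**Figure D5:**
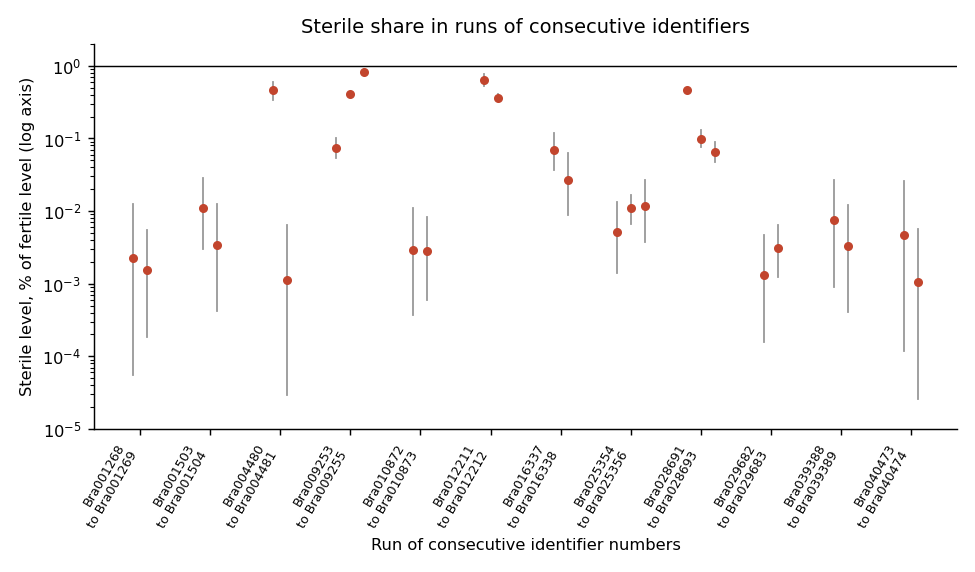
Sterile level as a percentage of the fertile level (log axis) for the 27 genes of the set that stand in runs of consecutive identifier numbers. Bars are exact 95% intervals from pooled counts, which cover counting error only, and the line marks the 1% limit of the rule. The pair from Bra004480 is the widest, at 0.459% and 0.00113%, and many intervals are long because they rest on 1 to 3 sterile counts.

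Genes next to a member by number, but outside the set, can be read against the background. Of 209 such Bra genes tested, 79 (37.8%) were lower in sterile buds by the edgeR test (adjusted p under 0.05), near the background of 33.3%. At least 10-fold lower were 34 (16.3%), against a background of 7.83% and 6.39% among the 30820 other Bra genes tested, a difference that was not tested. Their median log2 fold change was -0.01, near that of all genes tested, 0.00. The 34 include 5 abundant genes without a sterile count. These are Bra001270, next to the members Bra001268 and Bra001269; Bra005943, next to Bra005944; Bra033059 and Bra033061, on both sides of Bra033060; and Bra034679, next to Bra034680. Bra033060 itself had 773.1, 792.3 and 776.0 raw CPM in fertile buds and 2 sterile counts, both in library 2. Bra034679 had 391.8, 424.0 and 376.7 raw CPM in fertile buds and none in sterile buds, where 3 counts over the group would be 0.0307 raw CPM. Among the numbers Bra005943 to Bra005946, all at 100 raw CPM or more in fertile buds, the sterile level was 0 counts, 0.0383%, 5.25% and 0.167% in turn. These neighbours were named after their values were seen.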

How the data were processed

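RNA sequencing of flower buds gave 3 fertile and 3 sterile libraries, grouped by the genotype label; columns were matched to samples by title. Raw read counts per gene, whole numbers, were used as deposited by the authors, and so was their table of RPKM. The 2 do not match everywhere. Bra001269 had 0, 1 and 1 sterile counts and Bra003491 had 0, 1 and 0. Both had an RPKM of 0 in every sterile library. These genes were picked after their values were seen. The submitters' processing notes list TopHat2 2.0.9 along with Bowtie2 2.0.6, without a role; for the counter, strand setting, build and annotation the sources used here give nothing. Whether reads of overlapping or antisense genes were kept apart is therefore not known.

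Raw CPM is the count divided by the sum of its column. Coding lengths were recovered from count and RPKM, and all 147 are multiples of 3. A RefSeq gene table of 51589 genes (assembly CAAS_Brap_v3.01) matched 1 identifier and no member, so the marker lists planned by gene name were not tested.

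edgeR 4.0.16 (R 4.3.3; filterByExpr, TMM scaling, quasi-likelihood test, Benjamini-Hochberg adjustment over 33150 genes, no replicate term) gave fold changes; the SE is the log2 fold change over the square root of F. DESeq2 1.42.0 and limma 3.58.1 on log2(RPKM + 1), for genes at RPKM of 1 or more in 3 libraries, were alternatives. The tests were checked on simulated data. Intervals of ratios are exact conditional binomial intervals on counts pooled over libraries, so they leave out the spread between libraries. With p-values, the spread is that between these samples.

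The members, the lists and the 500 nt boundary were chosen with earlier results of these data known. Genes named are the members highest in fertile CPM (10) and RPKM (5), lowest and highest in ratio (5 each) and with most sterile counts (5). Also named are those most variable in fertile libraries (3), most uneven in sterile ones (3), shortest, longest and in runs of 3. So are 6 genes just outside the rule and, besides the planned list, the 3 least abundant members. Others are marked as picked later.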

Additional observations from a re-analysis of the deposited data

How the results depend on the processing

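All 147 genes were called lower under all 12 alternatives of the fit. The 33 members named by the rule kept direction and call in all 396 combinations of a gene and an alternative. The rule chose these genes on the same contrast, so neither count measures how stable the calls are. The number of genes meeting the rule was 160 with TMM-scaled CPM, 230 from 50 raw CPM, 98 from 200, 132 and 163 with ratio limits of 0.5% and 2%, and 170 with RPKM in place of CPM (129 of them in the set). With 1 library omitted at a time the number was 131 to 149, a share of fertile counts of 9.27% to 9.33% and of sterile counts of 0.0123% to 0.0152%. With those ratio limits the shares were 8.55% and 10.02% of fertile counts, and 0.00822% and 0.0241% of sterile counts. Genes lower in sterile buds over all genes tested numbered 11027, but 6854 with library size alone, where the median over all genes was a log2 fold change of 0.31, and 6011 and 5977 with limma on RPKM at pseudocounts of 1 and 0.1; when each library was left out they numbered 10431 to 10870. The median log2 fold change of the set was -11.73, and -7.65 and -9.91 in those limma fits, where the pseudocount shrinks it by construction; without each library it was -11.85 to -11.62. It includes fitted values of genes with 1 to 3 sterile counts. With TMM-scaled CPM the median coefficients of variation were 4.54% in the set, 6.59% in abundant genes without sterile counts and 3.57% in those keeping over 50%. The quotient of sterile library 3 was 1.34 summed without the 5 genes with most sterile counts, and, chosen after seeing the data, its median was 1.36 in 43 members with at least 50 sterile counts and 1.27 in those of at least 500 nt. Members with another within 2 numbers were 30. A replicate block gave 11254 genes lower over all genes; deviations from the group mean correlated at 0.0212, -0.037 and 0.097 between libraries of the same number, which gives no pairing, and best correlations were not all between same numbers; the block changed no call of a member. Depth limits the ratio of the 47 members with 1 to 3 sterile counts.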
